A study of Arabidopsis thaliana with 12 samples.

Results

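The 5 genes described here are nuclear genes for proteins of the 2 photosystems in the thylakoid membrane of the chloroplast. PSAN (AT5G64040) belongs to photosystem I, PSBY (AT1G67740) and PSBW (AT2G30570) to photosystem II, and LHB1B2 (AT2G34420) to the light-harvesting antenna of photosystem II, while PSB27 (AT1G03600) encodes a factor for the assembly and repair of photosystem II. They were chosen by locus with earlier results of these data known. Counts of them beside the share of all features are therefore description only. Each was read through a probe that the platform annotation gives to that locus and to no other. All 5 were found with 1 probe each among the 692 single-gene probes and 3439 probes of the array. Total RNA of 6 wild-type (WT) and 6 prors1 samples of Arabidopsis thaliana was measured, all of the Columbia 0 ecotype, and the samples of each genotype were numbered 1 to 6. The labels describe prors1 as lacking a prolyl-tRNA synthetase, the enzyme that loads transfer RNA with proline. They give no allele and no tissue, age or growth condition. The level of the PRORS1 gene itself was not analysed here. The labels do not say whether the numbered samples came from separate plants or cultures, so a p-value here reflects only how far these samples spread, and that spread may be technical.

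PRORS1 is known to serve protein synthesis in both plastids and mitochondria. Chloroplasts make the central reaction-centre proteins of both photosystems on their own ribosomes, while many small subunits and the whole antenna are encoded in the nucleus and imported. Nuclear photosynthesis genes are known to respond to the state of the chloroplast, a response called retrograde signalling, and the comparison addresses their transcript levels in a mutant of this enzyme. Organellar protein synthesis itself was not measured here. Among the members, PSAN lies on the lumen side of photosystem I, where plastocyanin docks, and PSBY and PSBW are small membrane proteins of photosystem II. LHB1B2 is 1 of several closely related Lhcb1 genes, whose chlorophyll a/b-binding protein forms the main antenna trimers. PSB27 is a lumen protein that binds photosystem II while it is assembled or repaired and is absent from the finished complex.

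Of the 4 structural genes, PSAN, PSBY and LHB1B2 were lower in prors1, and PSBW was not. The assembly factor PSB27 was not lower either. On the intensities as deposited, PSAN, PSBY and LHB1B2 stood at 51.2%, 45.9% and 53.9% of the WT mean, while PSBW stood at 122% and PSB27 at 138%. The median of all features was itself higher in prors1 on that scale, by 0.91 on the log2 scale, so changes were tested after the arrays had been given the same distribution (quantile scaling), with limma across all features and Benjamini-Hochberg adjusted p-values at a threshold of 0.05. In that fit 3 of the 5 genes were called lower, where 23.2% of the 3303 features tested were, and none was called higher, where 19.6% were. At an unadjusted p of 0.05 in limma none of the 5 was higher either. On the deposited intensities the same 3 genes were called lower, against 5.50% of all features, and 1 gene, PSB27, was called higher, against 61.4%.

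**Figure D1:**
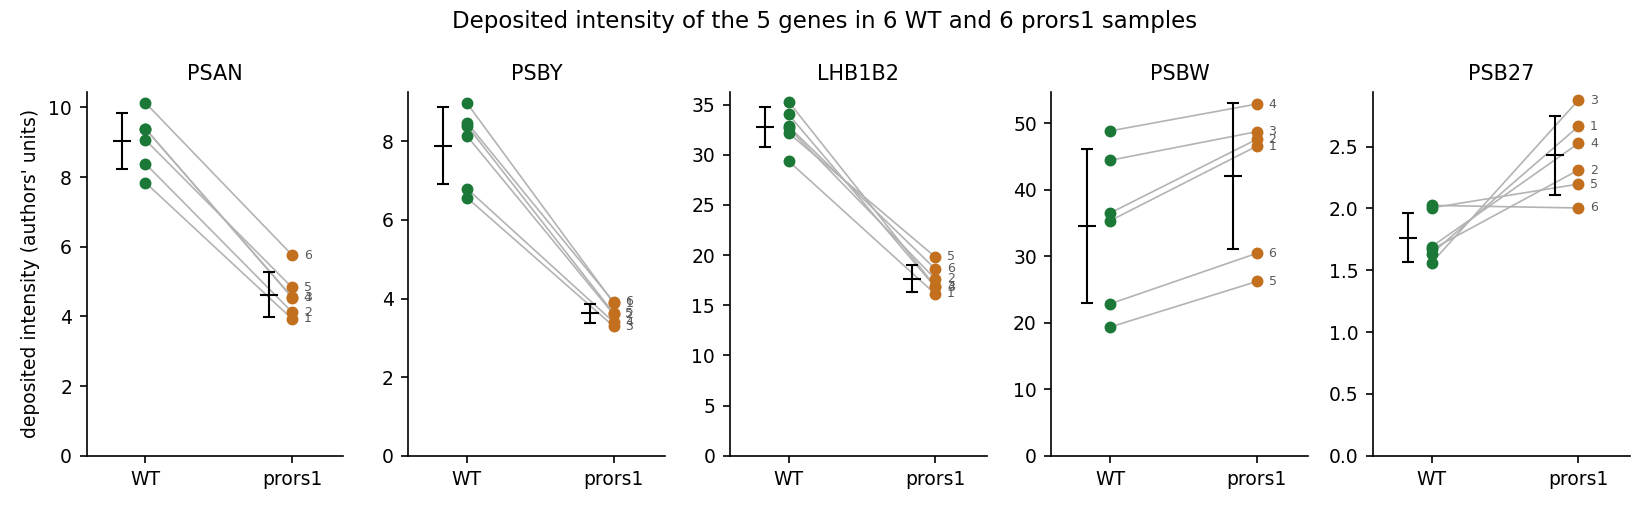
Deposited intensity (linear, authors' units, axes from 0) of each gene in 6 WT and 6 prors1 samples. Each point is 1 sample, grey lines join samples of the same number, which is printed at the right, and black bars give the mean and SD. PSAN, PSBY and LHB1B2 separate by genotype without overlap, PSBW runs upward along each of 6 lines from very different starting levels, and the PSB27 lines of samples 5 and 6 are nearly flat.

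The deposited arrays differed in their distribution between the genotypes. The median intensity ranged from 0.135 to 0.169 in WT and from 0.25 to 0.444 in prors1, and 368 to 396 probes in WT against 215 to 316 in prors1 were deposited at exactly 0. The deposited scale ends at 100, a value that none of the 5 genes reached, and none of the 5 was at the intensity floor in any sample. All 5 lay among the 826 brightest features, where the median difference between genotypes was 0.38 on the log2 scale as deposited and -0.10 after quantile scaling. The part of this shift in the members' differences was not tested.

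PSAN was the photosystem I member, and its deposited intensity ran from 7.84 over a median of 9.23 to 10.13 in WT and from 3.93 over 4.55 to 5.76 in prors1. Every prors1 sample lay below every WT sample. After quantile scaling the log2 level was 3.05 ± 0.12 in WT and 2.17 ± 0.21 in prors1 (mean and SD, n = 6 each), a difference of -0.88 (95% interval -1.13 to -0.64, adjusted p = 6.07e-05 in limma). All 6 same-numbered pairs were lower in prors1, by 0.73 to 1.03 on the log2 scale. The 3 sets of neighbouring numbers gave -0.99 for samples 1-2, -0.84 for 3-4 and -0.80 for 5-6, so the decrease was of like size in each.

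PSBY, a small hydrophobic protein at the edge of photosystem II, had the largest decrease of the 5 after quantile scaling and on the deposited values. Its deposited intensity ran from 6.57 over a median of 8.27 to 8.97 in WT and from 3.29 over 3.61 to 3.92 in prors1, again with no overlap. The scaled log2 level was 2.86 ± 0.20 in WT and 1.78 ± 0.05 in prors1 (mean and SD, n = 6 each), a difference of -1.08 (95% interval -1.30 to -0.85, adjusted p = 7.6e-06 in limma). The pairs ranged from -1.29 to -0.86. The prors1 samples lay close together, within 1.73 to 1.86, while the WT samples spread over 2.59 to 3.15, with samples 3 and 4 lowest.

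LHB1B2, the antenna member, was near the bright end of the array. Its deposited intensity ran from 29.4 over a median of 32.7 to 35.3 in WT and from 16.1 over 17.2 to 19.8 in prors1, so the genotypes were well apart and each was narrow. Scaled by quantiles, the level was 4.81 ± 0.09 in WT and 4.28 ± 0.24 in prors1 (log2, SD, n = 6 each), a difference of -0.53 (95% interval -0.79 to -0.27, adjusted p = 0.00324 in limma). Here prors1 sample 3, at 4.73, lay above WT sample 1, at 4.64. Quantile scaling keeps only a probe's position on its array, and LHB1B2 stood 16 to 19 places from the brightest probe in WT and 18 to 25 places from it in prors1. On the deposited scale the difference was -0.89 ± 0.10 (SE, adjusted p = 1.03e-05), 1.86-fold against 1.44-fold after quantile scaling. With samples 1-2, 3-4 and 5-6 averaged, so that n = 3 per genotype, the call was lost (adjusted p = 0.0778), while PSAN (adjusted p = 0.0175) and PSBY (adjusted p = 0.00909) stayed among the 11.8% of features that were called lower, and 10.8% were higher. With these sets as a random block all 3 were called lower, against 16.4% of features. The probe names 1 locus, but other Lhcb1 copies have near-identical coding sequence, and how much of their RNA it takes up is not known here.

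PSBW, which is known to hold antenna and core of photosystem II together, ranged more widely within each genotype than the genotype means differed. Its deposited intensity ran from 19.4 over a median of 35.9 to 48.9 in WT and from 26.2 over 47.1 to 52.9 in prors1. Samples 5 and 6 were the lowest of both genotypes, and samples 3 and 4 the highest. The groups overlapped, but within each of the 6 same-numbered pairs the prors1 sample was higher. The rise was 0.11 to 0.44 on the log2 scale as deposited and 0.33 to 0.83 after quantile scaling. As deposited its mean was 0.31, below the median of 0.38 for the 826 brightest features. On that scale 61.4% of all features were called higher. For PSBW the scaled level was 4.997 ± 0.46 in WT and 5.55 ± 0.60 in prors1 (log2, SD, n = 6 each), a difference of 0.56 (95% interval -0.07 to 1.19, adjusted p = 0.142 in limma). A block for the sample number, which compares within pairs, left the difference as it was and called PSBW higher (95% interval 0.32 to 0.80, adjusted p = 0.00324), while 23.9% of features were called higher and 26.5% lower in that fit. PSBW was not called with numbers 1-2, 3-4 and 5-6 averaged (adjusted p = 0.366) or with these sets as a random block (adjusted p = 0.190). An exact two-sided sign-flip test of the 6 pairs gave p = 0.03125, the smallest it can give, and counts the 6 pairs as independent. The direction did not hold under every scaling, since division by array medians gave -0.83 (adjusted p = 0.00177).

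PSB27 was between 1.56 and 2.02 as deposited in WT, with a median of 1.68, and between 2.003 and 2.88 in prors1, with a median of 2.42. The prors1 samples 1 to 5 lay above all WT samples, and prors1 sample 6 lay just under WT samples 5 and 6. After quantile scaling the level was 0.92 ± 0.21 in WT and 1.19 ± 0.21 in prors1 (log2, SD, n = 6 each), a difference of 0.27 (95% interval -0.01 to 0.55, adjusted p = 0.115 in limma). The pairs did not run one way. Samples 1-2 gave 0.35 and samples 3-4 gave 0.65, while samples 5-6 gave -0.19, and the replicate block left PSB27 uncalled (adjusted p = 0.184). On the deposited values it was called higher (0.46 ± 0.12, SE, adjusted p = 0.00625 in limma). That was less than the median of all features (0.91) but more than the median of the 826 brightest (0.38), PSB27 among them. Leaving out number 6 from both genotypes gave a difference of 0.38 for PSB27 (adjusted p = 0.0379 in limma) after quantile scaling.

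The scaling of the arrays decided the sign for PSBW and PSB27 and the size for the other 3. PSAN, PSBY and LHB1B2 were lower under each of 4 scalings tried. Their differences were -0.97, -1.12 and -0.89 as deposited, -0.81, -0.996 and -0.47 after cyclic loess, and -2.12, -2.26 and -2.04 after division by array medians. In that last fit all 5 genes were called lower, against 30.5% of features (16.8% were higher), with PSB27 at -0.69 (adjusted p = 0.00342). After cyclic loess PSBW was called higher at 0.82 (adjusted p = 0.039), where 20.0% of features were higher and 21.7% lower. In each of the 4 scalings the differences of PSAN, PSBY and LHB1B2 lay below those of PSBW and PSB27. After quantile scaling the prors1 values lay entirely below the WT values for PSAN and PSBY, that is for 2 of the 5 genes and for 14.1% of features. As deposited this held for PSAN, PSBY and LHB1B2, and for 3.63% of features.

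**Figure D2:**
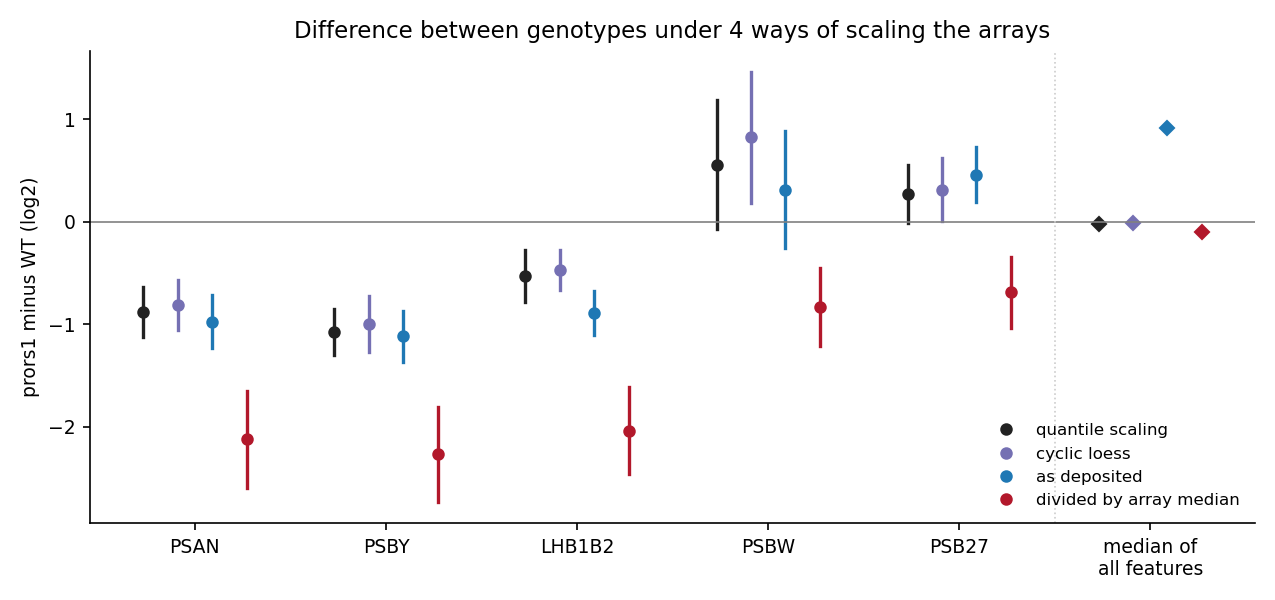
Difference between prors1 and WT (log2, y axis) for each gene under 4 scalings of the arrays, with 95% intervals from limma over 6 samples a genotype, and the median difference of all features at the right. Points under the line at 0 are lower in prors1. PSAN, PSBY and LHB1B2 are below 0 under each scaling, while PSBW and PSB27 lie above 0 except after division by array medians (-0.83 and -0.69).

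Whether a structural gene changed differently from the assembly factor was tested on the ratio of each feature to PSB27 on the same array, which no single scaling factor per array can alter. The height of such a ratio depends on the probes, so only its difference between genotypes is read. Relative to PSB27, 3 of the 4 structural genes were called lower in prors1 after quantile scaling, where 29.9% of all features were. The same 3 were called on the deposited intensities, where 12.1% of features were. The median difference of all features relative to PSB27 was itself -0.29 after quantile scaling and 0.45 as deposited (log2). Quantile scaling is not a single factor per array, and the sizes depended on it. As deposited the differences were -1.43 for PSAN, -1.58 for PSBY and -1.35 for LHB1B2. The ratios that follow are after quantile scaling unless stated. The ratio of PSBY to PSB27 was 1.93 ± 0.22 in WT and 0.59 ± 0.22 in prors1 (log2, SD, n = 6 each), a difference of -1.34 (95% interval -1.69 to -0.995, adjusted p = 3.85e-05 in limma). That of PSAN was 2.12 ± 0.18 in WT and 0.97 ± 0.36 in prors1 (log2, SD, n = 6 each), a difference of -1.15 (95% interval -1.54 to -0.76, adjusted p = 0.00030 in limma).

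The ratio of LHB1B2 to PSB27 was 3.89 ± 0.20 in WT and 3.09 ± 0.16 in prors1 (log2, SD, n = 6 each), a difference of -0.80 (95% interval -1.12 to -0.48, adjusted p = 0.000947 in limma). With neighbouring numbers averaged this call was lost (adjusted p = 0.0673 in limma). The calls of the other 2 ratios held there with wider 95% intervals. These were -1.97 to -0.72 for PSBY (adjusted p = 0.0118) and -1.80 to -0.50 for PSAN (adjusted p = 0.0239). For the ratios of PSAN, PSBY and LHB1B2 every prors1 sample lay below every WT sample, as it did for 15.5% of features set against PSB27. For PSBW no difference from PSB27 was found. Its ratio was 4.07 ± 0.67 in WT and 4.36 ± 0.47 in prors1 (log2, SD, n = 6 each), a difference of 0.29 with a wide 95% interval of -0.37 to 0.94 (adjusted p = 0.477 in limma). On the deposited values it was -0.15 (95% interval -0.76 to 0.47), so the sign of this difference was not settled by these samples.

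**Figure D3:**
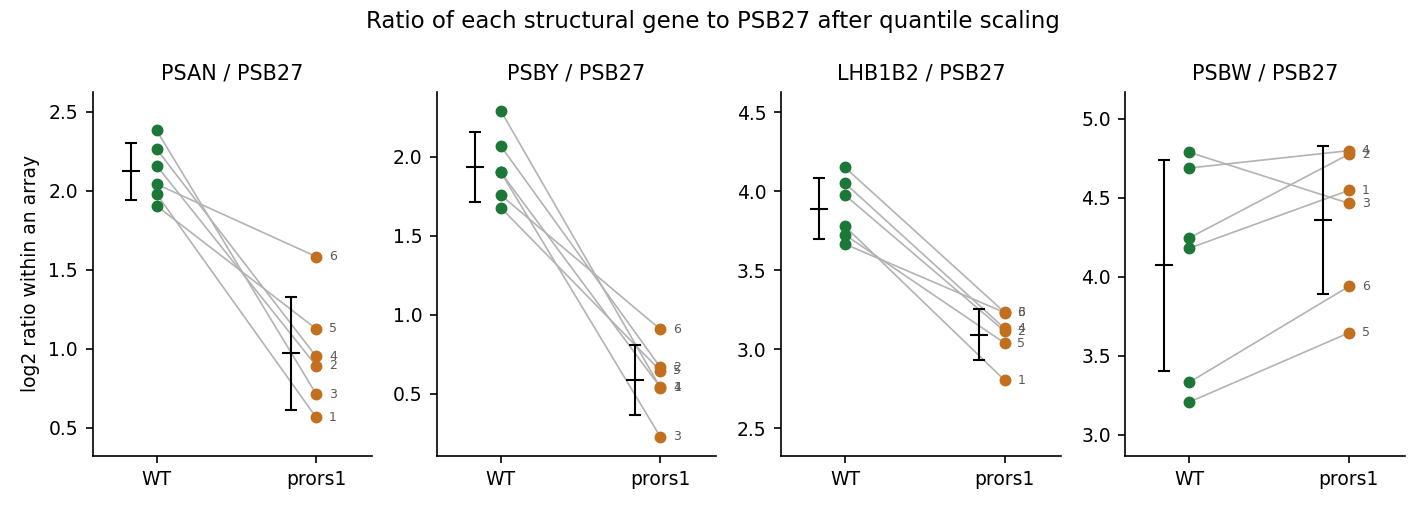
Log2 ratio of each structural gene to PSB27 on the same array after quantile scaling, in 6 WT and 6 prors1 samples. Points are samples, lines join samples of the same number, black bars give mean and SD, and each y axis spans the same log2 range. The ratios of PSAN, PSBY and LHB1B2 drop along every line, and those of PSBW overlap between the genotypes.

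The same ratio was also formed with PSBW, a structural subunit of the same photosystem as PSBY. It was added after the data had been seen, and PSAN, PSBY and LHB1B2 were taken because they were lower and PSBW because it was not, so its values describe the difference and support nothing further. Relative to PSBW on the same array, the difference between prors1 and WT was -1.63 ± 0.35 for PSBY, -1.44 ± 0.37 for PSAN and -1.09 ± 0.33 for LHB1B2 (log2, SE, n = 6 each). In that fit 23.0% of all features were lower. With the sample number as a block the SEs were 0.15, 0.15 and 0.14. With neighbouring numbers averaged the fit gave 1 common SE of 0.61, pooled over features and not the spread of each gene.

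Of 90 loci listed for photosystem subunits, antenna, assembly factors, electron carriers, the plastid ATP synthase and regulators of photosynthesis genes, 8 were measured by a probe of their own, namely the 5 above and 3 others. Of the 8, 4 were lower, 1 was higher and 3 were not called in prors1 after quantile scaling, where 23.2% of all features were lower and 19.6% higher. The lists too were chosen with earlier results known, so these counts are description only. LPA19 (AT1G05385) encodes the other Arabidopsis relative of PSB27 and is known to act in photosystem II assembly. Its deposited intensity ran from 0.116 over a median of 0.202 to 0.238 in WT and from 0.212 over 0.258 to 0.369 in prors1. These are dim values, and the groups overlapped. After quantile scaling the difference was -0.57 (95% interval -1.12 to -0.02, adjusted p = 0.0893 in limma), with all 6 pairs lower. As deposited it was 0.57, with all 6 pairs higher and a call (adjusted p = 0.0237 in limma). On that scale 61.4% of features were called higher, and the median feature rose by 0.91. The replicate block called LPA19 lower after quantile scaling (adjusted p = 0.021), where 26.5% of features were lower and 23.9% higher. The fit without prors1 sample 6 called LPA19 lower too (-0.70, adjusted p = 0.0339). It was not called with neighbouring numbers averaged (adjusted p = 0.252) or as a random block (adjusted p = 0.208).

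The other 2 loci have no symbol in the gene table and were placed on the lists of photosystem assembly genes from general knowledge. AT1G54500, on the photosystem II list, ran from 1.36 over a median of 1.40 to 1.57 as deposited in WT. In prors1 it ran from 0.98 over 1.09 to 1.29, all below WT, as for 3.63% of features. It was called lower, at -0.74 ± 0.11 after quantile scaling (SE, adjusted p = 0.000175 in limma) and -0.36 ± 0.11 as deposited (adjusted p = 0.0118). AT1G22700, on the photosystem I list, was the 1 listed locus called higher in the quantile-scaled fit on genotype alone. Its deposited intensity ran from 0.0846 over 0.147 to 0.23 in WT and from 0.445 over 0.664 to 0.719 in prors1. The WT values are dim, like those of LPA19. Among 825 features of like brightness the median difference was 0.90 on the log2 scale as deposited. The difference was 0.95 ± 0.20 after quantile scaling (SE, adjusted p = 0.00196 in limma), with all prors1 values above all WT values, as for 11.4% of features. As deposited it was 2.03 ± 0.24 (SE, adjusted p = 1.76e-05 in limma), where 61.4% of features were called higher. The 2 loci kept their direction and their call under all 4 scalings. Their calls also held with neighbouring numbers averaged (adjusted p = 0.0288 for AT1G54500 and 0.045 for AT1G22700 in limma). A further 5 probes with several genes touch the lists, and only 1 of these probes is described here. That probe is annotated with 3 genes, all of them on the photosystem II antenna list, and cannot be given to any of them. It was lower after quantile scaling (-0.43 ± 0.14, SE, adjusted p = 0.0224), while its deposited intensities, 1.21 to 1.77 in WT and 1.13 to 1.75 in prors1, overlapped with a difference of -0.12 (adjusted p = 0.483).

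**Figure D4:**
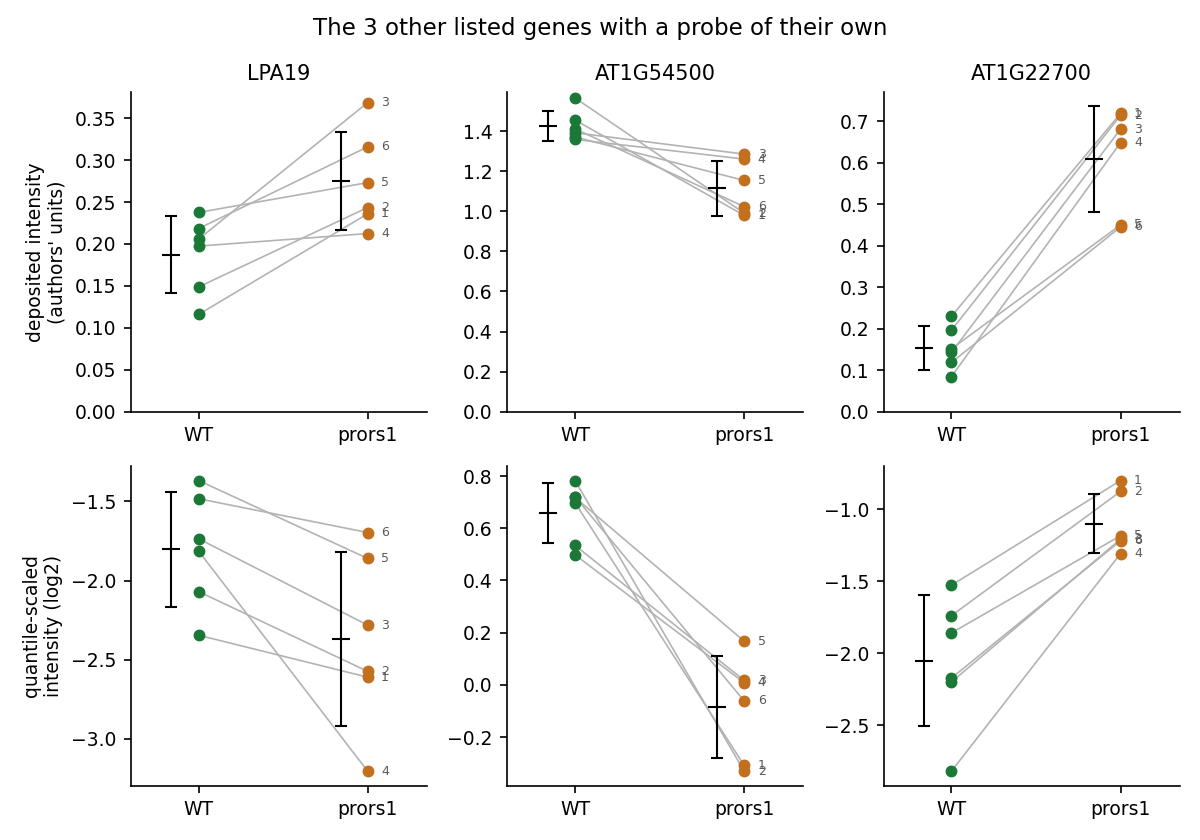
The 3 other listed genes measured by a probe of their own, as deposited (upper row, linear, from 0) and after quantile scaling (lower row, log2). Points are samples, lines join samples of the same number, and black bars give mean and SD over 6 samples. LPA19 runs up in the upper row and down in the lower one, whereas AT1G54500 runs down and AT1G22700 runs up in both.

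Likeness between genes was described by the root mean square difference between their scaled log2 values over the 12 samples, each gene centred on its own mean. By this measure PSAN was closest to PSBY among the members (0.25) and nearly as close to LHB1B2 (0.27), and PSBW was farthest from PSBY (0.98). Among 455 single-gene features never at the floor, the nearest to PSAN were AT1G17160 (0.17), AT1G54500 (0.17), described above, and AT3G46950 (0.18), where the median feature was at 0.58. Those nearest to PSBY were AT1G72020 (0.15), AT1G17160 (0.15) and PRK, the phosphoribulokinase of the Calvin cycle (0.17). AT1G17160 was thus near both PSAN and PSBY, with a difference of -1.12 between genotypes. The profiles compared include the genotype difference, so a near feature shares it through the choice. Such a difference is therefore no separate result. LHB1B2 was nearest to AT3G26580 (0.12), AT2G40980 (0.16) and AT2G32040 (0.18).

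For PSBW the nearest profiles were farther off, at 0.21 for AT5G11550, 0.22 for AT2G31920 and 0.24 for AT4G13680. Their differences between genotypes were 0.72 for AT5G11550, 0.57 for AT2G31920 and 0.62 for AT4G13680, and these too follow from the choice. PSB27 was nearest to AT1G67800 (0.17), AT1G07460 (0.20) and HEMA3, a glutamyl-tRNA reductase gene of tetrapyrrole synthesis (0.21). All these values share the 12 arrays and their scaling. In RNA from whole samples, fewer cells that express a gene and less of its RNA per cell cannot be told apart.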

How the data were processed

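The 12 samples were single-channel arrays. The authors' deposited table holds 1 intensity per probe and sample, linear and never negative. Their scanning and normalization are not given in the sources used here. Probe names rest on the annotation of the platform, possibly old, read through gene identifiers to the RefSeq TAIR10.1 gene table (690 of 692 single-gene probes matched). No coordinates are given, since the probes come without a genome build. The array medians differed by up to 3.28-fold, so arrays were quantile-scaled, a floor was set at the 5th percentile of the positive values (0.0467, which 13.7% of values took) and log2 was taken. After leaving out 135 features at the floor in all samples, 3303 remained. Differences were tested with limma 3.58.1 in R 4.3.3 (genotype only, two-sided, Benjamini-Hochberg over all features, threshold 0.05), also with log2 PSB27 subtracted on each array. The script was tested on simulated data. Precision is limited by how few arrays there are.

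The members and gene lists were chosen with earlier results of these data known. Besides the members and the other listed loci, the text names for each member the 3 features with the most similar profile. Over 2385 features never at the floor, each WT sample deviated from its genotype mean in the same sense as the prors1 sample of its number (correlations of 0.346 to 0.489), so the numbers were taken as pairs. The labels do not say what they mark. Within a genotype, log2 ratios between samples 1-2, 3-4 and 5-6 had SDs of 0.355 to 0.449, against 0.428 to 0.762 between other samples, so these sets were also averaged and used as a random block. Other alternatives were the scaling, the floor, a filter on dim features, a replicate block, exact permutation and sign-flip tests, and leaving out samples or numbers.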

Additional observations from a re-analysis of the deposited data

Results flagged for a closer look

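Among 30 groups (6 samples each), 1 held a sample set apart from its group, where chance gives about 1 in 20. LHB1B2 was lowest in WT replicate 1 at 4.64 on the quantile-scaled log2 scale, with the next WT value at 4.83, at which 4 of the other WT samples lie together. These 4 were tied by the scaling at place 17 from the brightest probe, and WT replicate 1 stood at place 19. With such ties the rate of 1 in 20 need not hold. As deposited WT replicate 1 was at 29.4 and the other WT samples at 32.2 to 35.3. Without WT replicate 1 the difference between genotypes was still called.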

How the results depend on the processing

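PSAN and PSBY kept their call, against WT and relative to PSB27, under all 11 alternatives and 18 omissions of 1 sample or 1 number. Only the other scalings and the omissions could move these differences, and the direction held in them. The floor, the dim filter, the blocks, the averaging and the exact tests leave the difference as it is. The exact tests gave unadjusted p-values. Relative to PSB27, deposited and median-divided values give the same difference by construction. Leaving out gave -0.95 to -0.83 for PSAN, -1.12 to -0.99 for PSBY, -0.64 to -0.48 for LHB1B2, 0.42 to 0.74 for PSBW and 0.16 to 0.38 for PSB27, and relative to PSB27 -1.28 to -1.05, -1.44 to -1.25, -0.87 to -0.74 and, for PSBW, 0.10 to 0.45. PSBW was called higher without prors1 replicate 5 (0.74, adjusted p = 0.0433 in limma), where 690 features were called higher. PSB27 was called higher without number 6, where 630 features were. Division by array medians turned PSBW to -0.83 and PSB27 to -0.69. It moved the count of members called lower from 3 to 5, and the share of all features from 23.2% to 30.5%. PSBW was called higher after cyclic loess (0.82), where 20.0% of features were. The replicate block and the exact sign-flip test of pairs called PSBW higher too (0.56 in both), and both count 6 numbers as independent. In the replicate block 23.9% of features were higher. PSBW was not called with numbers averaged (adjusted p = 0.366 in limma) or the random block (adjusted p = 0.190). The replicate block called LPA19 lower as well and changed no other call of a named gene of the lists. PSB27 was called higher as deposited (0.46). Relative to PSB27, PSBW stood at -0.15 as deposited and after division by array medians. Averaging neighbouring numbers ended the calls of LHB1B2 (-0.53) and of its ratio to PSB27 (-0.80). That left 2 genes called in place of 3 in both comparisons. In these fits 11.8% of features were lower in prors1, and 437 features were lower relative to PSB27. LPA19 turned to 0.57 as deposited.

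Over all features, 765 were lower and 649 higher after quantile scaling, 182 and 2030 as deposited, and 391 and 358 with numbers averaged. Relative to PSB27, 988 were lower, against 401 as deposited, 379 after division by array medians, 437 with numbers averaged and 562 with the random block. The cause of these shifts was not tested.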
